A study of Mus musculus with 36 samples.

Results

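The 10 genes described here encode receptors for fibroblast growth factor (FGF) and epidermal growth factor (EGF) and the genes that feed back on the signal from those receptors, and they were taken by symbol from the 40205 genes listed for every library, of which 31069 had a count in any. All 10 were found. There are 4 receptors (Fgfr1, Fgfr2, Fgfr3 and Egfr), 4 inhibitors (Spry1, Spry2, Spry4 and Dusp6) and 2 transcription factors (Etv4 and Etv5). The RNA came from neural stem cells (NSC) of wild-type C57BL/6J mice and from the extracellular vesicles (EVs) that these cells released into their medium. The study's methods name the mice as the Ai14 reporter line, so that allele would be shared by all groups. The NSC were dissociated from fetal dorsal telencephalon at gestational day 12.5 and used as floating neurospheres at passages 7 to 10. Each culture held pooled tissue from the fetuses of 1 sex in 1 pregnancy, which gave 6 cultures from 3 pregnancies (female 3F, 4F and 5F, male 3M, 4M and 5M, numbered by pregnancy). Every culture was grown for 5 days without ethanol, at 120 mg/dL ethanol (26 mM, moderate) or at 320 mg/dL (70 mM, heavy), and each culture and dose gave 1 NSC library and 1 EV library. The 36 libraries thus formed 6 groups of location and dose with 6 libraries each, and the 3 libraries of a culture and location are not independent of each other.

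EV libraries held 0.959 to 5.51 M counts and NSC libraries 26.6 to 55.3 M, so a member was read with 4 to 615 counts in an EV library and carried more counting error there. The lowest share of counts on the 10 genes was that of the EV library of culture 4F at 320 mg/dL, with 161 counts-per-million (CPM), against a median of 462 over the EV libraries. Of the neural stem cell markers, Nes, Vim and Fabp7 were high in the NSC libraries, with medians of 343, 1562 and 960 CPM (scaled within NSC by TMM, the trimmed mean of M-values), whereas Sox2 was listed at 0 in all 36 libraries. Sox2 lies within the longer noncoding gene Sox2ot in the mouse annotation, and why it was at 0 was not tested, so no level of Sox2 in the cells is read from it. Oligodendrocyte lineage markers were also present, with Olig1 at a median of 341 CPM. The summed CPM of the 5 microglial, 4 endothelial, 4 fibroblast and 3 blood markers stayed at or below 1.07, 2.54, 2.99 and 0.0865 in NSC libraries on the scale shared with EVs, and reached 12.2, 13.7, 14.8 and 1.14 in EVs. Their EV medians were 4.93, 3.45, 3.76 and 0 CPM, and at the EV depths above sums of this size rest on few counts.

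FGF and EGF are the mitogens on which neurospheres are usually kept dividing, and their receptors are tyrosine kinases that pass the signal through RAS and RAF to the kinases MEK and ERK. ERK activity then raises transcription of its own brakes, among them the Sprouty proteins and the ERK phosphatase DUSP6, and of the ETS transcription factors Etv4 and Etv5. Levels of the Sprouty, Dusp6 and Etv transcripts are therefore widely read as a record of recent FGF and EGF signalling in the developing cortex. The medium was described as serum-free and mitogenic, and the mitogens themselves were not named in the sources used here.

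In NSC, the receptor for EGF and the feedback inhibitor Spry2 were the most abundant of the 10 transcripts per length. As CPM per kilobase of the canonical transcript, median levels over 18 NSC libraries were 53.1 for Egfr and 52.9 for Spry2. Dusp6 followed at 39.4, Etv5 at 27.5, Spry1 at 24.5, Spry4 at 20.6 and Fgfr3 at 18.3. Fgfr1 at 12.1, Fgfr2 at 9.98 and Etv4 at 9.44 closed the order. The ranges of neighbours in that order overlapped in every case, for example 30.7 to 78.6 for Egfr and 32.8 to 72.6 for Spry2, so only the ends of the order stand clear of the spread between libraries. On the mouse genome build GRCm39 the canonical transcripts span chr8:26008745-26066824 for Fgfr1, chr7:129763471-129868272 for Fgfr2, chr5:33879067-33894412 for Fgfr3 and chr11:16702198-16868158 for Egfr, each receptor being spliced from 18 exons except Egfr with 28. Spry1 lies at chr3:37693897-37698755, Spry2 at chr14:106128766-106134792 and Dusp6 at chr10:99099068-99103361, with 3, 2 and 3 exons. Etv4 at chr11:101660568-101676197 and Etv5 at chr16:22200057-22258483 have 13 exons each, and Spry4, with 2 exons, is on chromosome 18. Genes annotated on the opposite strand overlap some of these, of which Eldr, at Egfr, held 106 to 719 counts per NSC library and Gm34921, at Dusp6, held 64 to 510. The library kit was stranded, but whether strand was used when reads were counted is not given in the sources used here.

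The culture an NSC library came from went with larger differences in these genes than the ethanol dose did. Fgfr2, a receptor for several FGFs of the developing brain, ranged in NSC from 15.5 to 148 CPM, scaled within NSC, with a median of 66.1. Its mean over the 3 doses was 16.7 CPM in culture 3F, 38.4 in 4F, 43.0 in 3M, 85.1 in 4M, 100.5 in 5F and 126 in 5M, and no library of the 3 lower cultures reached one of the 3 higher cultures. Between cultures lay 98.5% of the spread of log2 Fgfr2 levels in NSC and 0.334% lay between doses, where the medians over 17792 genes tested in NSC were 73.8% and 2.64%. Egfr was split between the same cultures. It lay at 365 to 522 CPM in the 9 libraries of 3M, 3F and 4F and at 729 to 905 CPM in those of 5M, 5F and 4M, with 94.9% of its spread between cultures. Spry2, an inhibitor of RAS to ERK signalling, separated the same way, at 122 to 186 CPM in 3F, 3M and 4F against 219 to 263 CPM in 5F, 4M and 5M. Fgfr3 was split between other cultures, with 3F, 4F and 4M at 58.1 to 90.2 CPM and 5F, 5M and 3M at 90.6 to 158 CPM. For the other 6 genes the 3 lower and the 3 higher cultures overlapped. Cultures were ordered by each gene's own means, and the share of all genes that such an order splits was not counted. The share of the spread between cultures was below the 73.8% median of genes for Dusp6 (72.7%), Etv5 (71.5%) and Spry4 (64.6%), and above it for the other members.

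**Figure D1:**
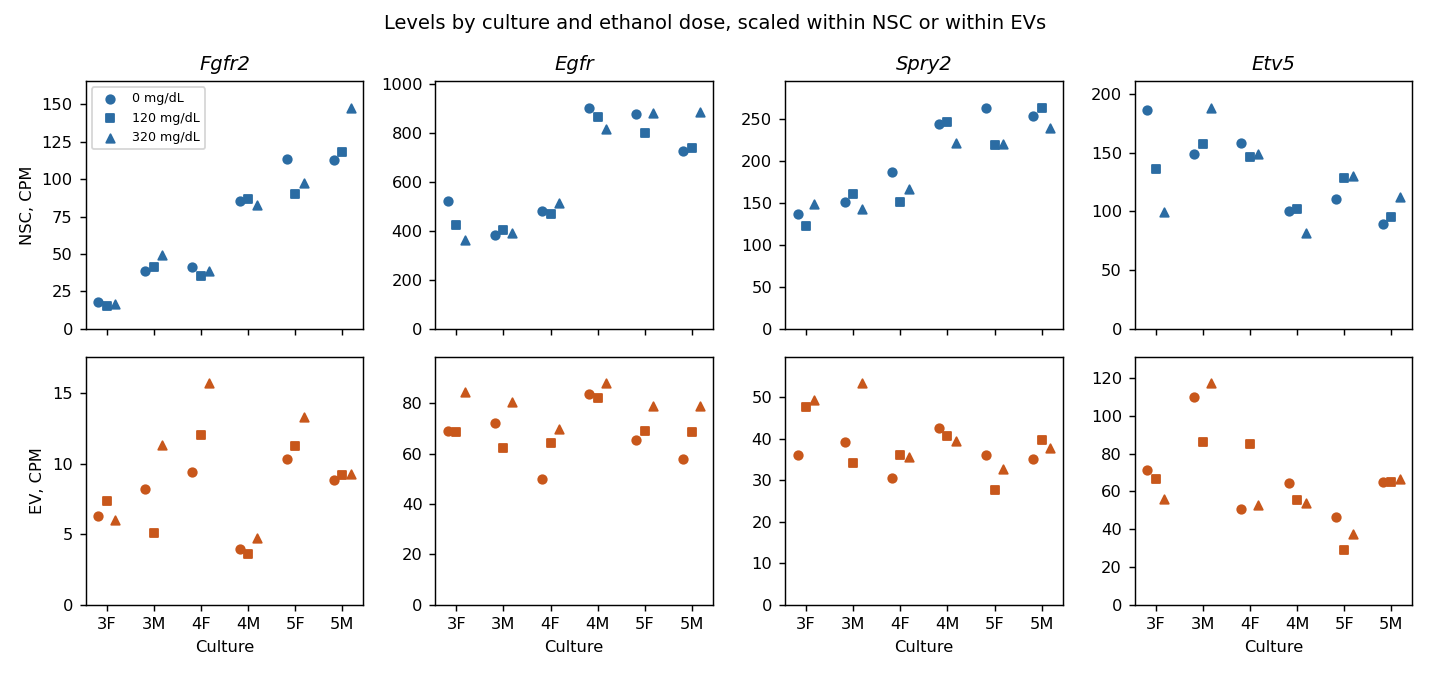
Levels of Fgfr2, Egfr, Spry2 and Etv5 (columns) in NSC (upper row) and EVs (lower row) as CPM scaled within that location, with 1 point per library, cultures on the x axis and the ethanol dose as the symbol. In NSC the libraries of 4M, 5F and 5M lay above those of 3F, 3M and 4F for Fgfr2, Egfr and Spry2, and the EV rows show no such separation.

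Over the 18 NSC libraries, Fgfr2 correlated with Spry2 at r = 0.92, Egfr with Spry2 at 0.90, Egfr with Spry1 at 0.86 and Fgfr2 with Egfr at 0.84 on the log2 CPM scale. These points share cultures, and the values are descriptions without a test. Etv5 ran the other way, with r = -0.71 against Spry2 and -0.62 against Egfr, and its culture means were highest in 3M (165 CPM), 4F (151 CPM) and 3F (141 CPM). Feedback genes thus did not vary as 1 block in NSC. The correlation of each of the 6 inhibitors and transcription factors with the mean standardised level of the other 5 ran from -0.05 for Etv5 to 0.47 for Etv4. The mean of all 6 is another quantity, and the 5 genes most like it among 8879 compared were Scrib at r = 0.84, Ap3d1 at 0.82, Hnrnpul1 at 0.81, Wdr41 at 0.80 and Gosr1 at 0.79. Mean neural stem cell and oligodendrocyte lineage marker sums were split between the same cultures, and the neuronal and astrocyte sums were not. The summed CPM of 8 neural stem cell markers, Sox2 at 0 among them, averaged 4425, 4944 and 4184 in 3F, 3M and 4F and 3921, 3513 and 3776 in 4M, 5F and 5M. It correlated with Egfr at -0.86, with Spry1 at -0.79 and with Spry2 at -0.72, but with Dusp6 at 0.53. The sum of 7 oligodendrocyte lineage markers correlated with Spry2 at -0.72, Fgfr2 at -0.65 and Egfr at -0.61, but with Etv5 at 0.59 and Dusp6 at 0.58. The sum of 6 neuronal markers correlated with Egfr at 0.82 and with Fgfr2 at 0.40, and the sum of 4 astrocyte markers with Fgfr3 at 0.89 and with Fgfr1 at 0.75. Gfap, the main astrocyte marker, averaged 21.5 CPM in 3F, 236 CPM in 3M and 237 CPM in 5M, while Aqp4 was at 0. The part of these marker differences in the levels of Egfr, Spry2 and the FGF receptors was not tested, and in bulk RNA fewer cells of a type and less RNA per cell cannot be told apart. Log2 total counts of a library correlated with Fgfr1 at 0.40, with Etv4 at 0.27, with Dusp6 at 0.22 and with the other members at 0.18 or less.

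The sequences just upstream of the starts of Fgfr2, Egfr and Spry2 are shown, as these were split between the same cultures in NSC. That of Etv5, which varied against them, is shown as well. Spry1 (r = 0.86 with Egfr) and Spry4 (r = 0.77 with Egfr) also correlated positively with Fgfr2, Egfr and Spry2 in NSC, and their sequences are not shown. Each run is the 200 bases before the start of the canonical transcript, 5′ to 3′ on the gene's strand, read from GRCm39. Capitals mark a GC box (GGGCGG) or an ETS site (CCGGAAG), a motif of the family of factors that Etv4 and Etv5 belong to, searched on both strands, and no marked match overlaps another. The regions are chr7:129868273-129868472 on the minus strand for Fgfr2, chr11:16701998-16702197 on the plus strand for Egfr, chr14:106134793-106134992 on the minus strand for Spry2 and chr16:22258484-22258683 on the minus strand for Etv5.
Fgfr2: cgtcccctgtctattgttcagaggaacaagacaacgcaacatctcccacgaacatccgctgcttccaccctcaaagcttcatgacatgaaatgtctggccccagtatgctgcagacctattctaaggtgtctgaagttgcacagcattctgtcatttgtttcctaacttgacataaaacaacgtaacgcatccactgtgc
Egfr: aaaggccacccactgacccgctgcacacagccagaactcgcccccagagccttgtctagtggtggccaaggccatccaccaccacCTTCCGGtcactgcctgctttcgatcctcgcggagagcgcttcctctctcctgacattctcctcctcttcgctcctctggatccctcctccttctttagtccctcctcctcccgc
Spry2: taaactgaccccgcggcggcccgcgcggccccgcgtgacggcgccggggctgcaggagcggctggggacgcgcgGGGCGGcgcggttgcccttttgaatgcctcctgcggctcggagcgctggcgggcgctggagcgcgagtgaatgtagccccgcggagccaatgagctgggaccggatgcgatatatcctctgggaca
Etv5: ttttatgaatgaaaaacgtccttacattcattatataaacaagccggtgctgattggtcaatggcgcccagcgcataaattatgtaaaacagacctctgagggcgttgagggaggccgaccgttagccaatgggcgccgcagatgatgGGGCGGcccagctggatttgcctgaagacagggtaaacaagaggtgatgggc
The Egfr run held 1 ETS site, written as its reverse complement, and the Spry2 and Etv5 runs held 1 GC box each, while the Fgfr2 run held neither. Among 21770 upstream runs of the same length before protein-coding genes, 34.8% held a GC box, 6.29% an ETS site and 1.59% a cAMP response element (TGACGTCA), which was searched as well. Of the 10 members 4 held a GC box (Fgfr1, Fgfr3, Spry2 and Etv5), 1 held an ETS site and 0 held the cAMP response element. The share of G and C was 47.0% upstream of Fgfr2, 61.5% for Egfr, 72.5% for Spry2 and 50.5% for Etv5, against a median of 54.5%. No motif of the searched ones was common to Fgfr2, Egfr and Spry2.

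EVs held less of the receptor transcripts and of Spry2 and Dusp6 than their cell-of-origin NSC, while Etv4 was higher and Spry1 and Spry4 did not pass the test. Levels in this comparison are CPM scaled over all 36 libraries, and a gene passed at an adjusted p under 0.05. The study reports high RNA integrity for NSC and states that integrity could not be accurately calculated for EV RNA. It also extracted the RNA of EVs and NSC with different kits. Effects of location, RNA integrity and extraction therefore cannot be told apart in this comparison. Egfr lay between 313 and 804 CPM in NSC with a median of 542, and between 45.0 and 112 CPM in EVs with a median of 82.2. The ranges did not overlap, and Egfr was lower in the EV library of all 18 pairs of culture and dose. The fitted difference was 6.52-fold lower in EVs, or -2.70 on the log2 scale (SE 0.16, adjusted p = 1.02e-17 by edgeR's quasi-likelihood test). This fit had no term for culture and took the 18 libraries of a location as independent, although they came from 6 cultures. The SE and adjusted p of this comparison therefore overstate the replication. With counts summed over doses and culture as a block, Egfr was at -2.61 (adjusted p = 5.59e-06 by the same test). Fgfr2 had the next largest difference, from 13.5 to 134 CPM in NSC (median 56.3) to 4.75 to 15.2 CPM in EVs (median 10.7). Its ranges met only through culture 3F, the NSC culture with the least Fgfr2, and its level was lower in 18 of 18 EV libraries (log2 difference -2.56, SE 0.27, adjusted p = 7.67e-11).

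Fgfr1 had 44.3 to 106 CPM in NSC (median 74.1) and 10.1 to 36.01 CPM in EVs (median 19.8). These ranges were apart, with a log2 difference of -1.77 (SE 0.13, adjusted p = 5.14e-15). Fgfr3 had 48.5 to 132 CPM in NSC (median 77.2) and 12.7 to 53.2 CPM in EVs (median 23.2). The Fgfr3 ranges overlapped by a narrow margin, through the EV libraries of culture 3M at 0 and 320 mg/dL, and its log2 difference was -1.68 (SE 0.14, adjusted p = 8.33e-14).

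Among the inhibitors, Spry2 and Dusp6 went with the receptors. Spry2 had 106 to 235 CPM in NSC (median 172) and 27.5 to 68.7 CPM in EVs (median 44.1), with a log2 difference of -1.89 (SE 0.13, adjusted p = 8.97e-16). Dusp6, which removes the activating phosphates from ERK, had 78.8 to 166 CPM in NSC (median 112) and 12.6 to 45.8 CPM in EVs (median 25.1), with a log2 difference of -2.14 (SE 0.15, adjusted p = 5.51e-16). Both were lower in the EV library of 18 of 18 pairs, and neither overlapped between locations. Spry1 had 36.5 to 109 CPM in NSC (median 66.2) and 31.98 to 144 CPM in EVs (median 70.9), and Spry4 had 59.4 to 166 CPM in NSC (median 97.9) and 45.1 to 208 CPM in EVs (median 114). The EV ranges of these Sprouty genes enclosed the NSC ranges, and neither passed the test, with log2 differences of 0.21 (95% interval -0.13 to 0.54, adjusted p = 0.246) for Spry1 and 0.06 (-0.26 to 0.38, adjusted p = 0.734) for Spry4.

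The transcription factors differed from each other. Etv4 had 16.7 to 27.7 CPM in NSC (median 22.7) and 11.4 to 53.8 CPM in EVs (median 40.3). It was higher in EVs in 16 of 18 pairs, with a log2 difference of 0.71 (SE 0.11, adjusted p = 5.29e-07), and its lowest EV value was that of culture 4F at 320 mg/dL. Etv5 had 70.3 to 157 CPM in NSC (median 110) and 32.3 to 154 CPM in EVs (median 77.5). It was lower in 16 of 18 pairs, with a log2 difference of -0.55 (SE 0.16, adjusted p = 0.00194).

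**Figure D2:**
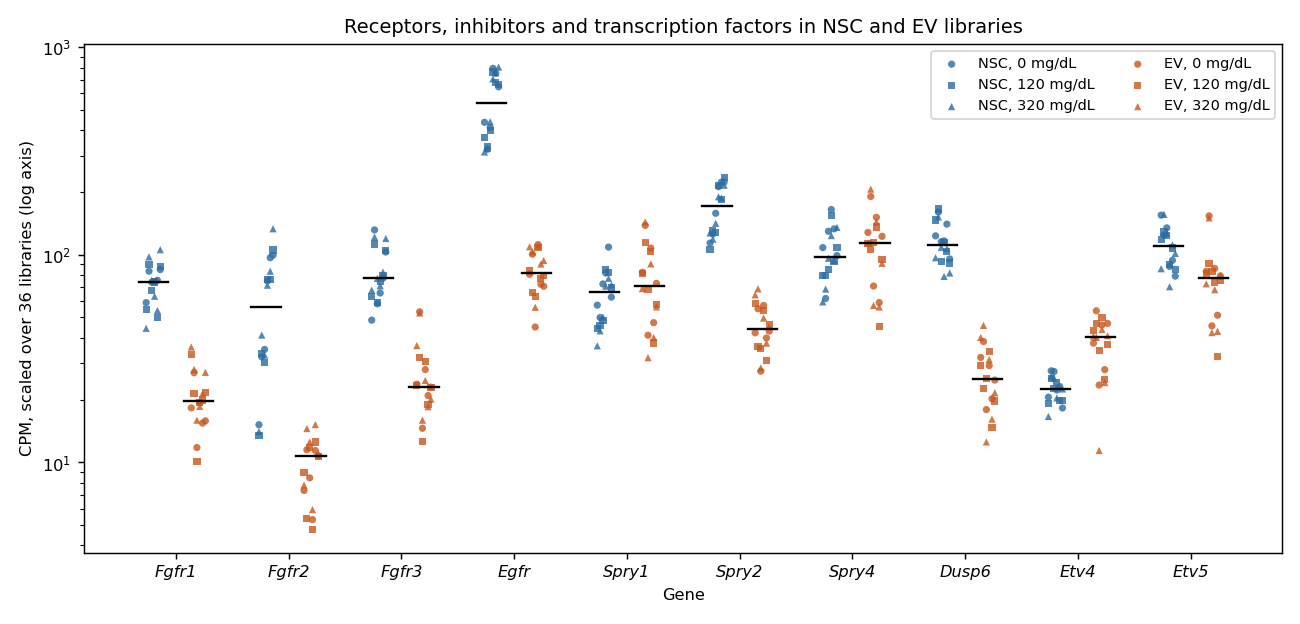
CPM of the 10 genes on a log axis, scaled over 36 libraries, with 1 point per library (NSC blue, EV orange, symbol for dose) and black bars at the median of 18 libraries. NSC and EV points are apart for Fgfr1, Egfr, Spry2 and Dusp6 and mixed for Spry1 and Spry4.

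Of the 10 members, 7 were thus lower in EVs, 1 was higher and 2 did not pass. In the background of 18728 genes tested, 82.3% passed the same threshold, 43.2% lower and 39.1% higher in EVs, so passing was common among all genes. Of the genes that passed, 47.6% were higher in EVs, against 58.7% with median-of-ratios scaling and 38.2% with library totals. The median log2 difference was -1.73 for the members and -0.11 for all genes. Ranges that did not overlap, with every EV library lower, were found for 4 members (Fgfr1, Egfr, Spry2 and Dusp6) and for 17.5% of all genes, and the opposite for no member and for 4.89% of genes. Relative to the median of all genes, the differences moved little between these 3 scalings of the same genes. That was nearly fixed in advance, since a change of scaling shifts the differences of all genes by about the same amount. Etv4 was higher by 0.82, 0.82 and 0.84 on the log2 scale with TMM, median-of-ratios and library-total scaling, and Etv5 differed by -0.44, -0.43 and -0.39. The median itself depends on which genes are in the fit. Without the filter on low counts it was 0.46, which put Etv4 at -0.01 and Spry1 at -0.51 relative to it, by DESeq2 on unfiltered genes it was 1.73 (Etv4 at -0.57, Spry1 at -1.09), and in libraries thinned to the smallest total it was -0.05 (Etv4 at 1.63, Spry1 at 1.00). On the absolute scale the scaling moved the median of all genes from -0.11 to 0.32 and -0.55, and with it Etv4 to 1.14 (adjusted p = 1.39e-13) and 0.29 (adjusted p = 0.0806) and Etv5 to -0.11 (adjusted p = 0.468) and -0.94 (adjusted p = 7.50e-05). Under the same change Spry1 went to 0.63 (adjusted p = 0.00027) and -0.16 (adjusted p = 0.469), and Spry4 to 0.49 (adjusted p = 0.00217) and -0.29 (adjusted p = 0.168). Without pregnancy 3, Spry1 at -0.39 (adjusted p = 0.0255) and Spry4 at -0.47 (adjusted p = 0.00495) passed as lower, and without pregnancy 5 Spry1 passed as higher at 0.58 (adjusted p = 0.00372). With all libraries thinned to the smallest total the differences shifted upward. Spry1 at 0.94 (adjusted p = 1.43e-06) and Spry4 at 0.77 (adjusted p = 6.87e-06) then passed as higher, Etv4 was at 1.58 and Etv5 did not pass at 0.18. The receptors stayed lower, with Fgfr1 at -1.10, Fgfr2 at -1.76, Fgfr3 at -0.85 and Egfr at -1.92, and so did Spry2 at -1.10 and Dusp6 at -1.34. With control libraries alone, Etv5 did not pass at -0.20 (adjusted p = 0.528). With the counts of a culture summed over doses, which leaves 6 EV and 6 NSC sums, 7 members passed and Etv5 did not, at -0.53 (adjusted p = 0.0511). By DESeq2 9 members passed, 3 higher and 6 lower in EVs. Spry1 at 0.635 (adjusted p = 6.48e-05), Spry4 at 0.489 (adjusted p = 0.00111) and Etv4 at 1.15 (adjusted p = 7.58e-42) passed as higher by DESeq2. Etv5 did not pass, at -0.114 (adjusted p = 0.456).

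Cell type markers moved with location as well. The summed neural stem cell markers lay at 2866 to 4578 CPM in NSC and 489 to 1277 CPM in EVs, the neuronal ones at 495 to 1036 and 168 to 335 CPM, and the microglial ones at 0.603 to 1.07 and 0 to 12.2 CPM. Of the 41 markers of all types 31 could be tested, 16 lower and 13 higher in EVs, and their part in the differences of the receptors and inhibitors was not tested.

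**Figure D3:**
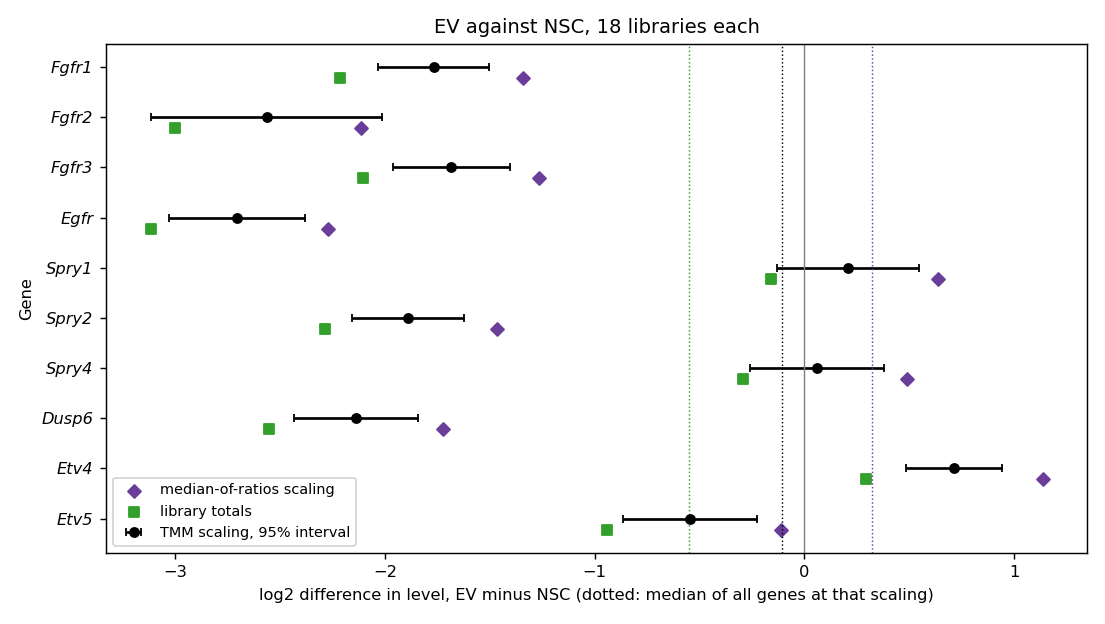
Log2 difference in level, EV minus NSC, for each gene (black points with 95% intervals, TMM scaling) and its value under 2 other scalings (diamonds and squares), with dotted lines at the median of all genes under each scaling. The receptors, Spry2 and Dusp6 lie at least 1 log2 unit below 0 under all 3 scalings, and Spry1 and Spry4 change sign between them.

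A ratio of counts within 1 library does not depend on scaling. The counts of Spry1 were 0.279 to 0.502 times those of Spry2 in NSC libraries (median 0.3804) and 1.06 to 3.19 times in EV libraries (median 1.59). This ratio was higher in the EV library of 18 of 18 pairs, and its ranges were apart. Spry4 relative to Spry2 went from a median of 0.615 in NSC to 2.55 in EVs and was also higher in 18 of 18 pairs. The ratio of Etv4 to Etv5 had a median of 0.205 in NSC and 0.525 in EVs and was higher in 18 of 18. Among receptors, the ratio of Egfr to Fgfr1 was lower in EVs in 16 of 18 pairs (median 7.46 in NSC, 3.83 in EVs), whereas Fgfr3 relative to Fgfr1 was higher in 11 pairs and lower in 7. The pairs of genes were chosen after their values were seen, so no test was made.

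**Figure D4:**
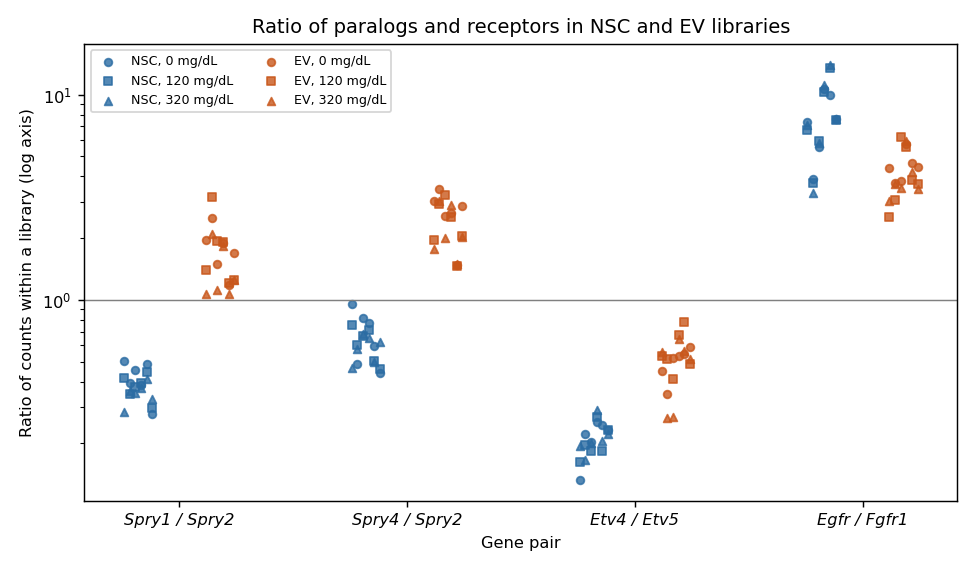
Ratio of the counts of 2 genes within each library on a log axis, for 18 NSC (blue) and 18 EV (orange) libraries, with the symbol giving the dose. For Spry1 over Spry2 and Spry4 over Spry2 every NSC library lies below 1 and every EV library above 1, and for Etv4 over Etv5 the EV libraries lie higher but below 1.

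Per length, the order of the 10 genes in EVs differed from that in NSC. Median levels in EVs, as CPM per kilobase, were highest for Spry1 (26.3), Spry4 (24.0), Etv5 (19.4) and Etv4 (16.8), ahead of Spry2 (13.6), Dusp6 (8.88) and Egfr (8.04). Fgfr3 (5.51), Fgfr1 (3.22) and Fgfr2 (1.90) were lowest, and again neighbours overlapped in range. These values divide by the full canonical length, and whether EV transcripts were whole was not tested.

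The order of the cultures in NSC was not carried over to EVs for every gene. Over the means of 6 cultures, the correlation between a gene's NSC and EV level was 0.59 for Fgfr3, 0.49 for Dusp6, 0.42 for Etv5, 0.37 for Egfr, 0.09 for Fgfr2, -0.13 for Fgfr1, -0.14 for Etv4, -0.25 for Spry4, -0.47 for Spry2 and -0.56 for Spry1. The median over 11838 genes tested in both locations was 0.14 with quartiles of -0.21 and 0.46, and with 6 cultures single values are imprecise. Fgfr2, 7.55-fold between the highest and lowest culture mean in NSC, was 3.03-fold in EVs with 4M lowest at 4.08 CPM and 4F highest at 12.4 CPM. Over 18 EV libraries the highest values of r were 0.90 between Spry1 and Spry4, 0.88 between Spry4 and Etv5 and 0.86 between Spry4 and Dusp6. In NSC these pairs had 0.81, -0.35 and -0.33. Over all 45 pairs of members the median r was 0.37 in EVs, with 35 positive, and 0.16 in NSC, with 29 positive. The lowest EV value was -0.66, between Fgfr2 and Etv4. Spry2 correlated less with Spry1 in EVs (0.54) than in NSC (0.81) and about as much with Spry4 (0.63 and 0.68), and no difference between locations was tested. Culture 3M was highest and 5F lowest in EVs for Spry1, Spry4, Dusp6, Etv4 and Etv5, for example 107 and 37.1 CPM for Spry1. These correlations again share cultures and carry no test.

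The members also differed in base composition. The share of G and C in the canonical transcript was lowest for Egfr (44.4%), Dusp6 (48.9%) and Spry2 (49.1%) and highest for Fgfr3 (56.3%), Spry1 (56.7%) and Etv4 (58.7%). Across the 10 genes its rank correlation with the EV minus NSC difference was 0.85, against 0.21 across 14510 protein-coding genes tested, and it is given as a description since genes of 1 library share their processing. For transcript length the same values were -0.62 and 0.07, with Egfr the longest at 10221 bases and Etv4 the shortest at 2400.

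The rest of the pathway was read in 74 further genes, of which 65 could be tested between EVs and NSC. In EVs 20 were higher and 32 lower, and 13 did not pass, with a median log2 difference of -0.35. Among all genes tested 39.1% were higher and 43.2% lower, and the pathway genes as a whole were near these shares, which also stand as the background for each group. Other genes induced by ERK were the most one-sided group, since 6 of 7 were lower and none higher. They included Fosl1, an AP-1 subunit (-3.34, SE 0.40), Phlda1 (-2.76, SE 0.27), the transcription factor Myc (-2.59, SE 0.23) and the immediate early gene Egr1 (-2.40, SE 0.24), while Ccnd1, the gene of cyclin D1, did not pass at -0.51 (adjusted p = 0.0584). Of 12 further inhibitors 9 were lower, with Rasa1, a RAS GTPase activating protein, at -2.49 (SE 0.11) and the ERK phosphatase gene Dusp5 at -2.27 (SE 0.35), and 3 were higher, with Il17rd, also called Sef, at 1.78 (SE 0.24) and Spred3 at 1.69 (SE 0.15). Like Spry1 and Spry2, the Spred genes were thus not uniform, with Spred1 at -0.93 and Spred2 at -1.06.

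The relay from the receptors to ERK was mixed, with 11 of 21 genes lower and 6 higher. Hras was lower (-0.41, SE 0.17) and Nras was higher (0.45, SE 0.13). Araf was lower (-1.74, SE 0.10), whereas Ptpn11, the phosphatase SHP2, was higher (1.72, SE 0.13) and so was Cbl, a ubiquitin ligase for activated receptors (2.19, SE 0.15). Of 10 EGF family ligands tested 4 were higher, 3 were lower and 3 did not pass. Hbegf was among the lower ones, with a median of 142 CPM in NSC and 8.99 CPM in EVs (-4.02, SE 0.31), and the neuregulins were higher. Nrg4 had a median of 1.64 CPM in NSC and 59.0 CPM in EVs (5.22, SE 0.29), and Nrg1, Nrg2 and Nrg3 were higher as well. Of 16 FGF ligands 8 could be tested, 5 higher and 1 lower, all at few counts. Fgf16, for instance, was higher by 4.10 on the log2 scale (SE 0.40) but had at most 8 counts in any EV library, and Fgf2, the mitogenic ligand, was lower (-1.48, SE 0.35) with at most 11. Of 7 other receptors and coreceptors 2 were higher and 2 lower, with Kl, the FGF coreceptor klotho, at 4.12 (SE 0.29) and the neuregulin receptor Erbb4 at -1.70 (SE 0.35). Hbegf, Fosl1, Phlda1, Nrg4, Kl and Fgf16 were named by size of difference, and the others here were chosen after their values were seen.

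None of the 10 genes passed the threshold, an adjusted p under 0.05, for ethanol in NSC. At 320 mg/dL against control, 0 of 10 members passed by edgeR and 0 by DESeq2, beside 0.0393% of 17792 genes by edgeR, and 3 members had an unadjusted p under 0.05, as did 8.57% of all genes. Spry1 was 59.6 to 128 CPM in control NSC (median 77.9), 51.0 to 97.4 CPM at 120 mg/dL (median 67.5) and 42.5 to 90.1 CPM at 320 mg/dL (median 69.0). The groups overlapped, 5 of 6 cultures were lower at 320 mg/dL than without ethanol, and the fitted log2 change was -0.33 (SE 0.10, adjusted p = 0.348). Dusp6 was 108 to 192 CPM in control NSC (median 142) and 90.4 to 183 CPM at 320 mg/dL (median 119). It was lower in 6 of 6 cultures with a log2 change of -0.29 (SE 0.10, adjusted p = 0.423), and the groups overlapped. The share of all genes that changed the same way in 6 of 6 cultures was not counted in any dose or ratio comparison. Fgfr3 was 58.1 to 158 CPM in control NSC (median 82.8) and 78.8 to 147 CPM at 320 mg/dL (median 93.3). It was higher in 5 of 6 cultures with a log2 change of 0.19 (SE 0.08, adjusted p = 0.500).

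The remaining members had changes in NSC of -0.29 (Spry4) to 0.04 (Fgfr2) at 320 mg/dL, with adjusted p of 0.620 or more. The 95% interval of the change was -0.23 to 0.15 for Egfr, -0.33 to 0.13 for Fgfr1 and -0.26 to 0.06 for Spry2. For Spry4 (-0.60 to 0.03) and Etv5 (-0.34 to 0.23) the intervals were wider. Culture 3F gave the lowest Spry4 change and the lowest Etv5 change, with Etv5 going from 186 CPM to 99.9 CPM. Without the NSC library of 3F at 320 mg/dL, the changes were -0.28 for Spry1 (adjusted p = 0.504), -0.24 for Dusp6 (adjusted p = 0.565) and -0.19 for Spry4 (adjusted p = 0.826). At 120 mg/dL 0 members and 0% of genes passed by edgeR, with 1 member (Spry1, -0.22, SE 0.10) and 2.5% of all genes at an unadjusted p under 0.05, and DESeq2 called 0 members. Between 320 and 120 mg/dL 0 members and 0% of genes passed by edgeR, and DESeq2 called 0 members. By edgeR 0 members had an unadjusted p under 0.05, beside 3.56% of all genes.

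**Figure D5:**
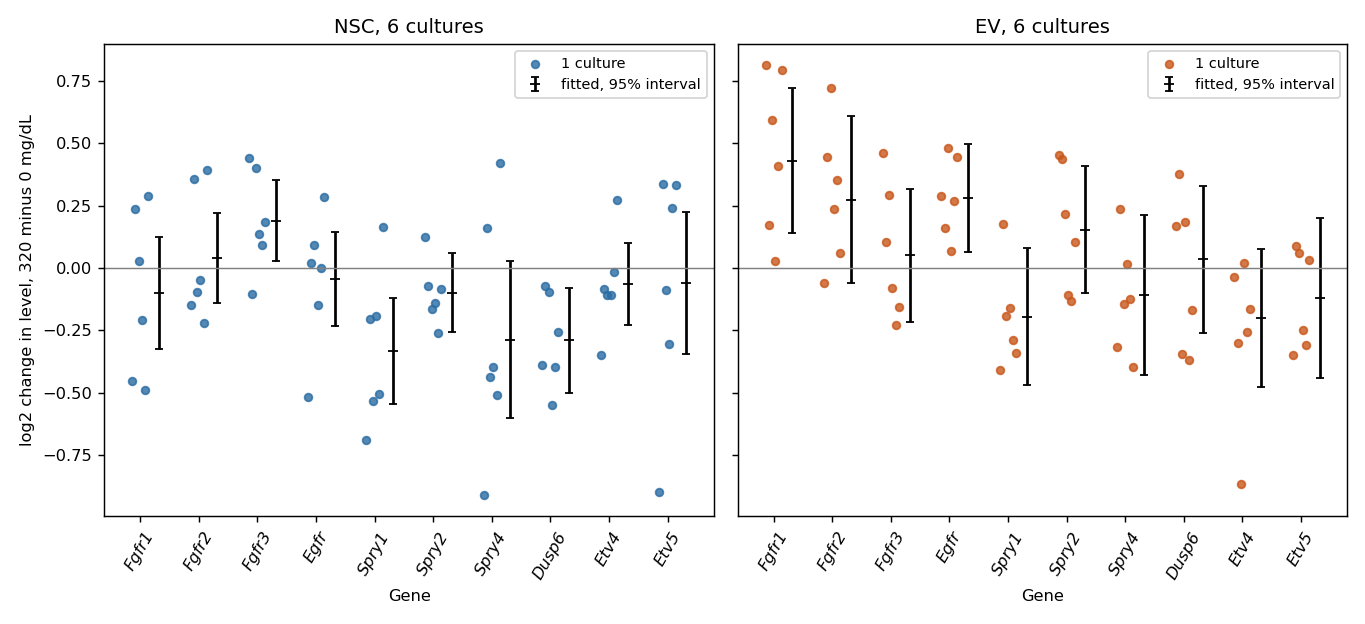
Log2 change in level from 0 to 320 mg/dL ethanol for the 10 genes in NSC (left) and EVs (right), with 1 point per culture and the fitted change with its 95% interval in black. All 6 cultures lie below 0 for Dusp6 in NSC and above 0 for Fgfr1 and Egfr in EVs. None of the 10 genes passed the threshold in either location, and the share of all genes with 6 cultures on 1 side was not counted.

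No member passed the threshold for ethanol in EVs either, and the largest fitted changes at 320 mg/dL were those of Fgfr1, Egfr and Fgfr2. At 320 mg/dL against control 0 of 10 members passed by edgeR and 0 by DESeq2, beside 0.0842% of 11880 genes by edgeR, and 2 members had an unadjusted p under 0.05, as did 11.9% of all genes. Values here are scaled within EVs. Fgfr1 was 13.01 to 19.3 CPM in control EVs (median 14.3), 10.3 to 27.1 CPM at 120 mg/dL (median 18.3) and 14.8 to 27.7 CPM at 320 mg/dL (median 20.9). It was higher at 320 mg/dL in 6 of 6 cultures, with overlapping groups and a log2 change of 0.43 (SE 0.14, adjusted p = 0.207). Egfr was 50.01 to 83.7 CPM in control EVs (median 67.2) and 69.8 to 87.8 CPM at 320 mg/dL (median 79.7). It too was higher in 6 of 6 cultures, with a log2 change of 0.28 (SE 0.10, adjusted p = 0.275) and overlapping groups. With library totals in place of TMM these changes were 0.20 for Fgfr1 and 0.04 for Egfr.

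The other members changed in EVs by between -0.20 (Etv4) and 0.27 (Fgfr2) at 320 mg/dL, with adjusted p of 0.579 or more. The Etv4 value rested in part on culture 4F, which went from 26.3 CPM without ethanol to 14.3 CPM. At 120 mg/dL 0 members passed by edgeR or DESeq2, beside 0.00842% of genes by edgeR. None had an unadjusted p under 0.05 by edgeR, beside 6.26% of all genes, and changes ran from -0.15 for Spry4 to 0.27 for Fgfr1. Between 320 and 120 mg/dL 0 members and 0% of genes passed by edgeR, and DESeq2 called 0 members. None had an unadjusted p under 0.05 by edgeR, beside 3.69% of all genes. In the 74 further pathway genes, 0 passed in any dose comparison by edgeR, with 2 of 65 in NSC and 7 of 47 in EVs at an unadjusted p under 0.05 for 320 mg/dL, beside the 8.57% and 11.9% of all genes.

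Whether ethanol moved the EV level apart from the NSC level was tested as a change of the EV to NSC ratio. At 320 mg/dL the ratio of Fgfr1 changed by 0.51 on the log2 scale (SE 0.20, adjusted p = 0.867), higher in 5 of 6 cultures, and that of Egfr by 0.29 (SE 0.23, adjusted p = 0.974), higher in 6 of 6. No member passed by edgeR or DESeq2, beside 0% of 18728 genes by edgeR, and 1 had an unadjusted p under 0.05, as did 5.37% of all genes. At 120 mg/dL 0 members passed by edgeR or DESeq2, beside 0.0107% of genes by edgeR. By edgeR 0 members had an unadjusted p under 0.05, beside 3.35% of all genes. The largest of the 10 SE of these ratio changes was 0.26, below the median SE of 0.34 over all genes at 320 mg/dL. On simulated counts, with changes given to genes drawn from all those tested, 21% of 2-fold and 71% of 4-fold changes of the ratio were recovered. These shares describe genes at large, and recovery for the 10 members was not simulated.

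Female and male cultures were compared on counts summed over doses, 3 against 3. In NSC Fgfr1 was lower in females by 0.47 on the log2 scale (SE 0.19, adjusted p = 0.747) and Fgfr3 by 0.63 (SE 0.27, adjusted p = 0.748). Fgfr2 had the largest NSC difference, at -0.73 (SE 0.68, adjusted p = 0.905). Fgfr2, Fgfr3 and Spry2 were lower in females in all 3 pregnancies in NSC. No member passed by edgeR or DESeq2, beside 0.0334% of 20972 genes by edgeR, and 1 had an unadjusted p under 0.05, as did 6.67% of all genes. In EVs 0 members passed by edgeR or DESeq2, beside 0% of 14847 genes by edgeR. By edgeR 0 members had an unadjusted p under 0.05, beside 15% of all genes. Spry1 had the largest EV difference, lower in females by 0.71 (SE 0.34, adjusted p = 0.347). Spry1, Fgfr3, Spry4, Dusp6 and Etv4 were lower in females in all 3 pregnancies in EVs. The share of all genes on 1 side in all 3 pregnancies was not counted in NSC or in EVs, so no sex pattern is read from these lists. On simulated counts, with changes given to genes drawn from all those tested, 39% of 4-fold and 0% of 2-fold changes between sexes in NSC were recovered. For genes at large this comparison could thus show only large differences.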

How the data were processed

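RNA of 18 NSC and 18 EV libraries was sequenced after rRNA depletion with a stranded kit. The deposited values are whole-number counts per gene that the authors made with Trimmomatic, STAR and HTSeq on mm39, per the submitters' processing notes. Whether counting used strand is not given in the sources used here. From the counts, edgeR 4.0.16 (R 4.3.3) gave TMM factors, CPM, log2 differences with SE and quasi-likelihood tests, adjusted by Benjamini-Hochberg over all genes that passed filterByExpr (minimum count 10, minimum total 15) at a threshold of 0.05. EVs against NSC had location, sex and dose as terms, dose comparisons had culture as a replicate block, and the EV to NSC ratio had the pair of libraries, location by culture and location by dose. Sex was tested on counts summed over doses.

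The culture block rests on the labels, which give each culture at all doses, and the control and 320 mg/dL libraries of 1 culture deviated together, with median correlations of 0.63 in NSC and 0.52 in EVs and all 6 cultures over 0.1. Without this replicate block 0 members passed in any dose comparison. The EV and NSC libraries of a pair did not deviate together (median 0.06, 6 of 18 over 0.1). All 36 columns were used and 0 pairs of libraries were identical. Pearson correlations are on log2 CPM with a prior count of 1.

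The 10 members and the lists of pathway genes and markers were chosen with earlier results of these data known. All members are named, of other pathway genes the 3 largest differences past the threshold in each direction, and the 5 genes of at least 10 CPM most correlated with the feedback genes. Upstream sequence and transcript lengths came from GRCm39 with GENCODE annotation. Alternatives were DESeq2 1.42.0, median-of-ratios factors, library totals, no filter, leaving out each pregnancy, other blocks, control libraries alone, summed counts and libraries thinned to the smallest total. Leaving out EV libraries under 2 M counts and single libraries of 4F and 3F was added after the data were seen. The scripts were tested on simulated counts, which recovered 78% of 2-fold and 97% of 4-fold changes for NSC at 320 mg/dL and 64% and 96% for EVs.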

Additional observations from a re-analysis of the deposited data

Results flagged for a closer look

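Of 60 sets of 6 libraries examined (10 genes in 6 groups), 4 had a library far from the other 5, where chance flags about 1 in 20 sets. Values are CPM scaled within the location. Fgfr3 was 38.0 CPM in the control EVs of culture 3M, and the next library was at 20.9 CPM. Culture 3M also had the highest mean Fgfr3 level in NSC. Etv5 was 117 CPM in the EVs of 3M at 320 mg/dL, with the next at 66.6 CPM. Egfr was 81.9 CPM in the EVs of 4M at 120 mg/dL, with the next at 69.1 CPM. Spry4 was 176 CPM in the NSC of 4M at 120 mg/dL, with the next at 121 CPM.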

How the results depend on the processing

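In the comparison of EVs with NSC, the 4 receptors, Spry2 and Dusp6 passed as lower and Etv4 was higher in all 13 alternatives, Etv4 not passing with library totals (0.29). Between 7 and 10 members passed, and with the EV and NSC pair as a replicate block 8 did. Spry1 changed sign with library totals (-0.16) and without the filter (-0.046). Spry4 changed sign with library totals (-0.29), without the filter (-0.20) and without EV libraries under 2 M counts (-0.11). Etv5 did so in libraries thinned to the smallest total (0.18). Leaving out a pregnancy, or the 4F EV library at 320 mg/dL, gave -0.39 to 0.58 for Spry1 and -0.47 to 0.31 for Spry4. The cause of these changes was not tested.

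No member passed in a dose or ratio comparison under any alternative. With 9 female and 9 male NSC libraries taken as independent, which libraries of shared cultures are not, 2 members passed, Fgfr1 (-0.45, adjusted p = 0.0461) and Fgfr3 (-0.56, adjusted p = 0.0416), both lower in females. Genes called over the whole table by edgeR and DESeq2 numbered 7 and 96 for NSC at 320 mg/dL, 10 and 267 for EVs at 320 mg/dL, 1 and 12 for EVs at 120 mg/dL and 7 and 179 for sex in NSC.

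A few changes that did not pass moved across 0 by more than their SE. With library totals these were, for NSC at 320 mg/dL, Fgfr2 (-0.071), for EVs at 320 mg/dL, Fgfr3 (-0.18), Spry2 (-0.074) and Dusp6 (-0.20), and for EVs at 120 mg/dL, Fgfr1 (-0.015), Fgfr2 (-0.18), Egfr (-0.16), Spry2 (-0.20) and Etv4 (-0.17). Without EV libraries under 2 M counts they were Spry2 at 320 mg/dL (-0.044) and Etv4 at 120 mg/dL (-0.074). With a pregnancy or a library left out, the ranges were -0.14 to 0.071 for Egfr and -0.16 to 0.022 for Etv4 in NSC at 320 mg/dL, and -0.060 to 0.079 for Etv4 between 320 and 120 mg/dL. In EVs they were -0.10 to 0.18 for Fgfr3 and -0.13 to 0.20 for Dusp6 at 320 mg/dL, -0.12 to 0.15 for Spry1 and -0.28 to 0.050 for Dusp6 at 120 mg/dL, and -0.083 to 0.30 for Fgfr3, -0.090 to 0.32 for Dusp6 and -0.12 to 0.13 for Etv5 between 320 and 120 mg/dL. For the ratio at 120 mg/dL Dusp6 ranged from -0.35 to 0.17. For sex, Dusp6 ranged from -0.29 to 0.21 and Etv4 from -0.21 to 0.17 in NSC, and Fgfr2 from -0.033 to 0.75 in EVs. EV depth limits all EV values.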

Other observations

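The spread of the members' levels was split by dose and by pregnancy, as a description. Dose held 35.3% of the spread of log2 Egfr levels in EVs and 27.7% for Fgfr1, where the median over 11880 genes was 6.10%. In NSC it held 12.7% for Dusp6 and 11.4% for Spry1. Pregnancy held 74.6% of the spread of Spry2 in NSC, 71.3% for Fgfr2 and 70.2% for Egfr, against a median of 29.6% over 17792 genes.

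In NSC, Etv5 was correlated with Dusp6 at r = 0.65 and with Etv4 at 0.63 over 18 libraries that share 6 cultures, while the Sprouty genes correlated with the neuronal marker sum at 0.68 for Spry1, 0.58 for Spry2 and 0.71 for Spry4.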
